A study of Mus musculus with 18 samples.

Results

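The genes described here encode the 5 subunits of the transcription factor NF-κB (Nfkb1, Nfkb2, Rela, Relb and Rel) and 5 proteins that restrain or modify it (Nfkbia, Nfkbib, Nfkbie, Nfkbiz and Tnfaip3). The 10 genes were chosen by name from the pathway, with earlier results of these data known but by no threshold on a measured value. Of them, 9 are among the 13598 mouse genes with a value under their own gene number, and Nfkbie was found by position. In resting cells the subunits are held in the cytoplasm by IκB proteins. Lipopolysaccharide (LPS), a component of the wall of Gram-negative bacteria, is sensed by the receptor TLR4, whose signal leads to the phosphorylation and destruction of the IκB proteins and to the entry of NF-κB into the nucleus. Several of the genes that NF-κB then switches on encode its own subunits and inhibitors, so that this set is known as a feedback circuit of macrophage activation.

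RNA-seq was performed on peritoneal macrophages from TLR4-WT mice and from mice carrying TLR4-K730R or TLR4-K810R, in which 1 lysine of the receptor is replaced by arginine. The mutant mice were made by CRISPR/Cas9 on a C57BL/6 background, and the macrophages were collected by lavage after thioglycolate was injected to draw them into the peritoneal cavity. Cells received LPS at 100 ng/ml for 6 h or were mock-treated, which gave 6 groups of 3 libraries (18 in all). The labels give neither the age nor the sex of the mice, nor whether the 3 libraries of a group came from separate mice, and if they did not, the p-values measure only the spread between preparations.

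Expression was deposited as FPKM, a level normalized to the length of the transcript and the number of fragments in the library, with 1 value for each first exon, last exon or splicing event of a gene. For each library, first-exon values of a gene were summed, as were last-exon values, and the larger sum was taken as its level, a scale per length on which genes may be compared with each other. Differences are given on the scale of log2(FPKM + 1), on which the change of a low gene is understated. A gene is called changed at an adjusted p below 0.01 in limma, with Benjamini-Hochberg adjustment over 9707 tested genes. No read counts were used, so the depth of each library is unknown and no counting error can be given. The test covered 9 of the 10 genes. Nfkbie had no row under its own gene number, because its first-exon and last-exon events (GRCm38, chr17:45555703-45556314 and 45562002-45563169, plus strand) carry the number of the neighbouring gene Slc35b2. Its values were taken from these events by position and tested in the same way among 10226 genes, an assignment chosen after the files were seen.

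The libraries carried the defining markers of macrophages. Adgre1 lay between 148 and 271 FPKM, Csf1r between 277 and 538 FPKM, Cd68 between 387 and 771 FPKM and Lyz2 between 5944 and 13291 FPKM. Fcgr1 and Mertk were more variable, at 26.7 to 412 and 5.03 to 32.2 FPKM, and Itgam was not listed. Libraries of a group correlated with each other at r = 0.961 to 0.9751 across genes, and libraries of different groups at up to 0.974. Tlr4 itself was listed at 4.18 to 14.2 FPKM, and its mutants did not differ from TLR4-WT at the threshold, but the level of the transcript does not check a change of 1 amino acid.

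Promoter sequences are shown for members that rose most with LPS and for 2 subunits that moved less. RefSeq promoter windows (GRCm38.p6, 250 bases before to 50 bases after the start of transcription) were found for 7 of the 10 genes, in 10 windows. Capitals mark each match to the NF-κB consensus on either strand, with overlapping matches merged, and every line reads 5′ to 3′ along the gene.
Nfkbia (chr12:55492598-55492897, minus strand): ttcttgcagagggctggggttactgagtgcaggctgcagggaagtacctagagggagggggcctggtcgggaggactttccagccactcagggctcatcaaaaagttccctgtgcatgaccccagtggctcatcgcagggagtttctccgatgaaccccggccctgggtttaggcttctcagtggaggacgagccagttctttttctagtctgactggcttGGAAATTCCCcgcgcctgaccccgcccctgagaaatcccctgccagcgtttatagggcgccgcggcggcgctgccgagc
Nfkb2 (chr19:46304487-46304786, plus strand): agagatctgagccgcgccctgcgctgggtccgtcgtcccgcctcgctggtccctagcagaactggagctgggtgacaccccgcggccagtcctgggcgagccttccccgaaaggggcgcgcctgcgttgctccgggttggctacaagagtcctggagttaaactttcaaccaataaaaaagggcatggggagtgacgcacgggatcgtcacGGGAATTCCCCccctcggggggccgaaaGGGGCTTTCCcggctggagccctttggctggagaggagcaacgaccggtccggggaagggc
Tnfaip3 (chr10:19015361-19015660, minus strand): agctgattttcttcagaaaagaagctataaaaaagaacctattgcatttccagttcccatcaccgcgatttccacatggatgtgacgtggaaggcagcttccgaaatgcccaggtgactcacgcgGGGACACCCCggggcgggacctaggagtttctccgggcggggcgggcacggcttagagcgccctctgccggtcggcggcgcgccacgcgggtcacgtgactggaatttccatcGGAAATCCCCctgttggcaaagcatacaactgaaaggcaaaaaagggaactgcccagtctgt
Nfkbie (chr17:45555450-45555749, plus strand): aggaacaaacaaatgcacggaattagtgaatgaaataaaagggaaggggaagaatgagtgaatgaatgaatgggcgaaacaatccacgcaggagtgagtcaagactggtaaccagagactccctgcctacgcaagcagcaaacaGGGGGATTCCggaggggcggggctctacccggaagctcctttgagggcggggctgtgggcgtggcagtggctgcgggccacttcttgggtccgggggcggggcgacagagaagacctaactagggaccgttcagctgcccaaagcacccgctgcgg
Rel (chr11:23770920-23771219, minus strand): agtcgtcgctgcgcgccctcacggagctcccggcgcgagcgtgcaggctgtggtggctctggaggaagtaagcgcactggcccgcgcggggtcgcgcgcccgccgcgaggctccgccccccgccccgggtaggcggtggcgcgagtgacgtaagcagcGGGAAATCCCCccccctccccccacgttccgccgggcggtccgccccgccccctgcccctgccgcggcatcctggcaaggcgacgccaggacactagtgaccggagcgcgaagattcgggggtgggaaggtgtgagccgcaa
Rela (chr19:5637291-5637590, plus strand): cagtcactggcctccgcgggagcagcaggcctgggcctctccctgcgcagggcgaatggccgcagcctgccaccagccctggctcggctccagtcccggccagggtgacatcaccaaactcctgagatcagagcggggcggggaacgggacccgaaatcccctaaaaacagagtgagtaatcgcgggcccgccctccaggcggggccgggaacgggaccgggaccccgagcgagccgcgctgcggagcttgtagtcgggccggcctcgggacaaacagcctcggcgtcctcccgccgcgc

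The consensus was found in 7 of the 10 windows and in 5 of the 7 genes (Nfkb2, Nfkbia, Nfkbie, Rel and Tnfaip3), against 4.51% of all 32851 RefSeq mouse windows of this length. The form GGGNNTTTCC overlaps with this consensus but also allows C or T after GGG, where the consensus takes only A or G. It was found in 6 of the 10 windows (those of Nfkb2, Nfkbia and Rel and 1 of Tnfaip3), against 1.63% of all windows. Of the 10 windows, 3 belong to Nfkb2, and overlapping windows share a match. The window of Nfkb2 shown above held matches that begin 39 bases and 11 bases before the RefSeq start site, and that of Nfkbia a match that begins 29 bases before it. In these libraries the leading first exon of Nfkb2 (chr19:46304320-46304820) spans the whole window shown, so these Nfkb2 matches lie inside that exon. In Rel the matches begin 92 and 91 bases before the start. Rela and Nfkbib had no match in these windows. The first exon listed for Nfkbib (chr7:28767471-28767512) lies outside its RefSeq window (chr7:28766595-28766894). The motif TATAA was present in 2 of the 10 windows, against 24.9% of all windows. A match is a run of letters and says nothing of binding in these cells.

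LPS raised Nfkb2, Nfkbia, Nfkbiz and Tnfaip3 by 5.14 to 9.15 times and Nfkbie by 3.56 to 4.89 times over the 3 genotypes. The other subunits rose by at most 2.82 times or did not pass the test. In TLR4-WT, 7 of the 9 tested members were called higher with LPS and 0 lower, beside 10.4% of all tested genes called higher. The count was also 7 of 9 in TLR4-K730R, beside 9.32%, and 7 of 9 in TLR4-K810R, beside 9.08%, but the members differed. Nfkb2, Rela, Relb, Nfkbia, Nfkbiz and Tnfaip3 were called in each genotype, whereas Nfkb1 was called in TLR4-WT and TLR4-K810R and Nfkbib in TLR4-K730R. The median difference of the 9 members on the log2 scale was 0.92, 2.32 and 1.44 in TLR4-WT, TLR4-K730R and TLR4-K810R, beside −0.28, −0.36 and −0.26 for all tested genes. In TLR4-K730R this median rested on Nfkbib, whose first exon is listed in 3 of 18 libraries: with Nfkbib taken from its last exon the medians were 0.92, 1.25 and 1.71, and over the 8 members without it 1.62, 1.64 and 1.88. With the libraries rescaled by median-of-ratios, the medians of all genes moved to between −0.04 and −0.01, and those of the 9 members rose to 1.24, 2.71 and 1.70, or to 1.92, 2.04 and 2.14 over the 8 without Nfkbib. LPS and mock libraries did not overlap for 8 of 9 members in each genotype, all higher with LPS, beside 15.5%, 13.8% and 14.6% of all genes. In these bulk samples, fewer cells of a type and less RNA per cell cannot be told apart.

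**Figure D1:**
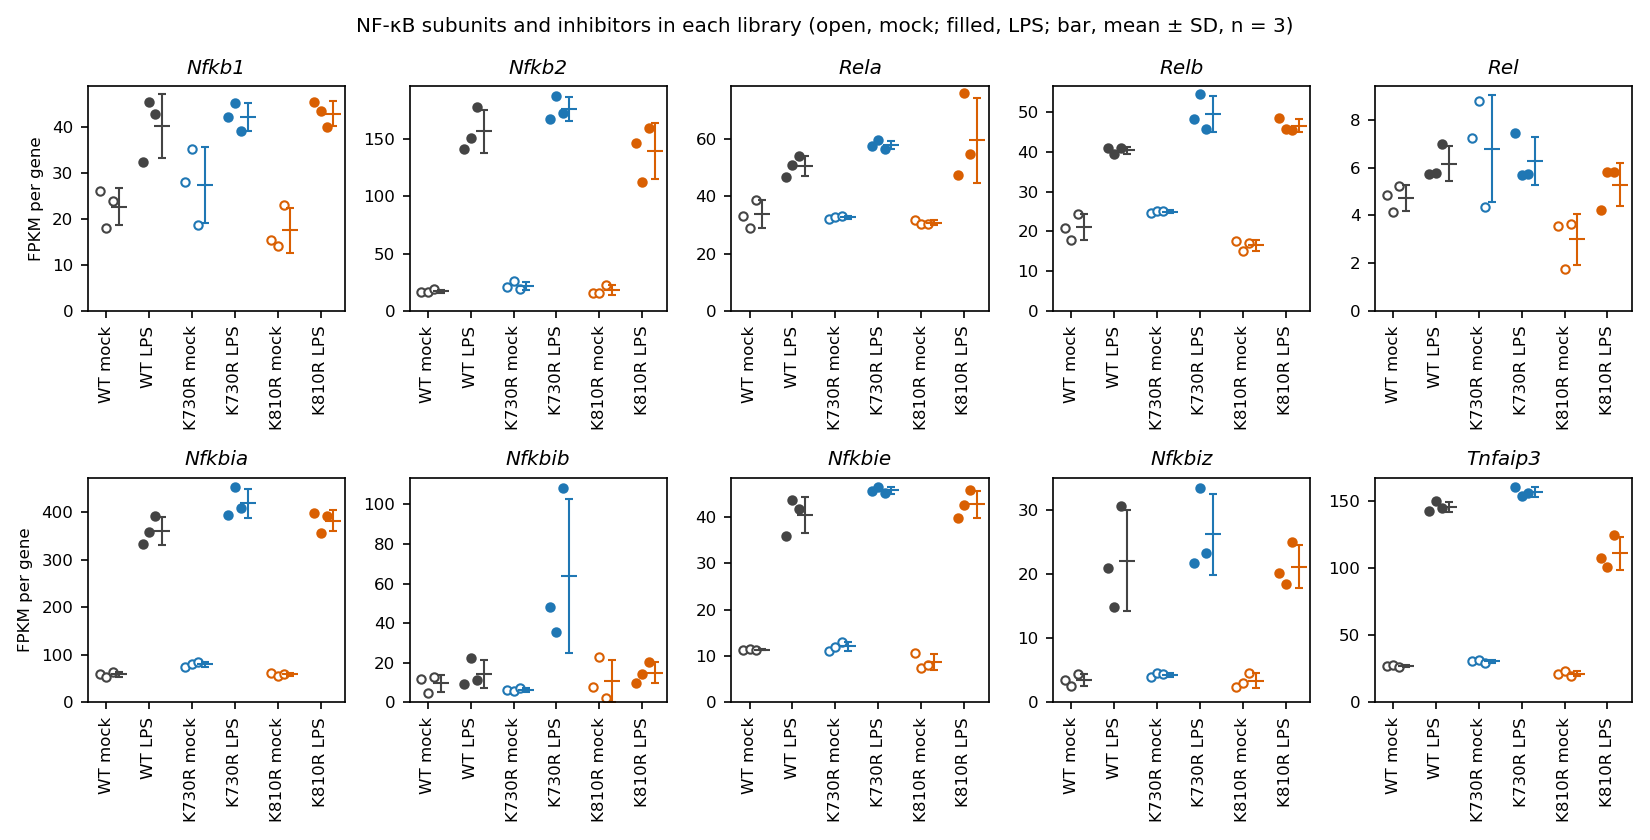
FPKM (linear axis from 0) of each of the 10 genes in every library, by genotype and treatment. Points are libraries, open for mock and filled for LPS, and the bars beside them are the mean ± SD of 3 libraries. Nfkb2, Nfkbia, Nfkbiz, Nfkbie and Tnfaip3 show LPS libraries far above mock libraries in all 3 genotypes, while those of Rel lie between 4.24 and 7.43 FPKM with LPS and 1.77 and 8.80 FPKM without.

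Nfkbia (chr12:55489410-55492647, minus strand) encodes IκBα, the inhibitor that is destroyed on activation and made again from the NF-κB-driven gene. It was the most abundant of the 10 transcripts in all 6 groups. In TLR4-WT it was 59.0, 53.6 and 64.2 FPKM in mock libraries and 333, 359 and 392 FPKM with LPS. In TLR4-K730R the mock libraries were at 75.4, 79.9 and 84.7 FPKM and the LPS libraries at 395, 453 and 408 FPKM. In TLR4-K810R the levels were 62.0, 55.1 and 60.4 FPKM without LPS and 398, 357 and 392 FPKM with it. The mock libraries of TLR4-K730R all lay above those of both other genotypes, and every LPS library lay far above every mock library. The mean rose 6.13 times in TLR4-WT (log2 difference 2.60, SE 0.10, adjusted p = 2e-11), 5.24 times in TLR4-K730R and 6.46 times in TLR4-K810R.

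Tnfaip3 (chr10:19000910-19015657, minus strand) encodes A20, a ubiquitin-editing enzyme that shuts off signalling upstream of the IκB kinases. TLR4-WT had 26.7, 28.2 and 26.6 FPKM in mock libraries and 142, 150 and 145 FPKM with LPS. TLR4-K730R had 30.6, 31.5 and 29.3 FPKM and rose to 160, 154 and 156 FPKM. TLR4-K810R had 21.02, 23.6 and 19.6 FPKM and rose to 107, 101 and 125 FPKM. By the larger sum, the 3 genotypes did not overlap with each other in either treatment, with TLR4-K810R lowest and TLR4-K730R highest. The mean rose 5.36, 5.14 and 5.19 times in TLR4-WT, TLR4-K730R and TLR4-K810R (log2 differences 2.38, 2.32 and 2.32, each called). These values rest on the last exon in several libraries. The last-exon sum was over 5% larger than the first-exon sum in 8 of the 18, and in 5 of these the first-exon sum was under 50% of it, among them TLR4-K810R LPS replicates 1 and 3 at 5.58 and 8.63 FPKM. From first exons alone the rise was 2.36 in TLR4-WT (adjusted p = 0.0412) and 0.66 in TLR4-K810R (adjusted p = 0.588), both no longer called, and 4.25 in TLR4-K730R (adjusted p = 0.00108). From them TLR4-K730R without LPS also turned from above TLR4-WT (0.16) to below it (−1.72, adjusted p = 0.721). Over all alternatives the adjusted p of the rise ran from 8.04e-12 to 0.0412 in TLR4-WT and from 1.31e-11 to 0.588 in TLR4-K810R.

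Nfkbiz (chr16:55811375-55838899, minus strand) encodes IκBζ, a nuclear IκB protein that acts with NF-κB on secondary response genes, and Nfkbie encodes IκBε, a cytoplasmic inhibitor. Nfkbiz was among the lowest transcripts in mock libraries, at 3.55, 2.60 and 4.48 FPKM in TLR4-WT, and reached 20.9, 14.9 and 30.6 FPKM with LPS. In TLR4-K730R it went from 3.93, 4.51 and 4.38 FPKM to 21.8, 33.5 and 23.3 FPKM, and in TLR4-K810R from 2.40, 2.99 and 4.67 FPKM to 20.2, 18.4 and 25.0 FPKM. All LPS libraries lay above all mock libraries, while the genotypes overlapped within each treatment. The log2 rise was 2.31, 2.34 and 2.37 in TLR4-WT, TLR4-K730R and TLR4-K810R, with an SE of 0.25 each. The levels and rises of Nfkbiz rest on first exons alone. Its only last-exon event was listed in 13 of the 18 libraries, at no more than 0.874 FPKM.

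Nfkbie was 11.3, 11.5 and 11.3 FPKM in TLR4-WT mock libraries and 36.0, 43.6 and 41.7 FPKM with LPS. It was 11.2, 12.0 and 13.0 FPKM in TLR4-K730R and rose to 45.6, 46.6 and 45.1 FPKM. In TLR4-K810R it was 10.7, 7.38 and 8.13 FPKM and rose to 39.8, 42.6 and 45.7 FPKM. The lowest mock libraries were thus those of TLR4-K810R, and the LPS libraries of TLR4-K810R overlapped with those of both other genotypes. The mean rose 3.56, 3.79 and 4.89 times, a log2 difference of 1.74, 1.84 and 2.18 (SE 0.12 each), called in all 3 genotypes in the test by position.

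Nfkbib (chr7:28758251-28767512, minus strand) encodes IκBβ, an inhibitor with slower turnover. Its call in TLR4-K730R, a log2 rise of 2.997 (SE 0.58, adjusted p = 0.000544), rests on a first exon of 42 bases that was listed in only 3 of the 18 libraries, at 48.0 FPKM in TLR4-K730R LPS replicate 1, 108 FPKM in TLR4-K730R LPS replicate 3 and 22.8 FPKM in TLR4-K810R mock replicate 2. The last exon was listed in all 18 libraries. By that exon, Nfkbib averaged 9.76 ± 4.29 FPKM in TLR4-WT mock and 14.4 ± 7.02 FPKM in TLR4-WT LPS libraries (SD, n = 3 each). It went from 6.29 ± 0.829 to 19.04 ± 14.1 FPKM in TLR4-K730R and from 4.20 ± 3.02 to 14.9 ± 5.34 FPKM in TLR4-K810R. The last exon alone gave a log2 rise of 0.52 in TLR4-WT (adjusted p = 0.412), 1.25 in TLR4-K730R (adjusted p = 0.048) and 1.71 in TLR4-K810R (adjusted p = 0.0116), of which none passed the threshold. Nfkbib also overlaps the end of the gene Ccer2 on the other strand, and whether the libraries kept strand is not given in the sources used here.

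Among the subunits, Nfkb2 (chr19:46304320-46312385, plus strand) rose most. It encodes p100, the precursor of p52 in the alternative pathway, which can itself hold other subunits in the cytoplasm. TLR4-WT libraries had 16.4, 16.2 and 18.7 FPKM without and 141, 151 and 178 FPKM with LPS. TLR4-K730R libraries had 20.7, 25.7 and 19.2 FPKM without and 167, 187 and 173 FPKM with LPS. TLR4-K810R libraries had 15.6, 15.9 and 23.0 FPKM without and 146, 113 and 160 FPKM with LPS. The LPS libraries lay between 141 and 187 FPKM, apart from TLR4-K810R replicate 2 at 113 FPKM. The mean rose 9.15 times in TLR4-WT (log2 difference 3.12, SE 0.16, adjusted p = 4.1e-10), 8.05 times in TLR4-K730R and 7.67 times in TLR4-K810R.

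Relb (chr7:19606217-19629438, minus strand), the partner of p52, rose by 0.92, 0.96 and 1.44 on the log2 scale in TLR4-WT, TLR4-K730R and TLR4-K810R (SE 0.11 each), called in each genotype. Its mock libraries were at 20.8, 17.9 and 24.4 FPKM in TLR4-WT, 24.5, 25.2 and 25.1 FPKM in TLR4-K730R and 17.6, 14.9 and 17.1 FPKM in TLR4-K810R. With LPS they were at 40.9, 39.3 and 41.0 FPKM, at 48.3, 54.5 and 45.8 FPKM and at 48.5, 45.6 and 45.6 FPKM, in the same order. TLR4-K810R was therefore lowest without LPS and above all TLR4-WT libraries with it. Rela (chr19:5637483-5648130, plus strand), which encodes p65, the main activating subunit, rose 1.499, 1.77 and 1.93 times in TLR4-WT, TLR4-K730R and TLR4-K810R, from group means of 30.7 to 33.6 FPKM to group means of 50.4 to 59.4 FPKM. The highest library, TLR4-K810R LPS replicate 2 at 76.0 FPKM, lay well above replicates 1 and 3 of its group at 47.5 and 54.8 FPKM. In replicate 2 the leading first exon made up 31.1% of the first-exon FPKM, and another first exon, listed in no other library, was at 52.2 FPKM. The last-exon sum of replicate 2 was 76.0 FPKM as well. The call of Rela in TLR4-WT (0.58, SE 0.14, adjusted p = 0.00325) was lost without TLR4-WT mock replicate 1 or 2 or LPS replicate 2 or 3 (adjusted p = 0.0114, 0.0195, 0.0114 and 0.0132), and over all alternatives its adjusted p ran from 0.000124 to 0.0195.

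Nfkb1 (chr3:135584655-135691547, minus strand) encodes p105, the precursor of p50. Its libraries were at 26.1, 18.1 and 23.9 FPKM in TLR4-WT mock and 32.4, 45.5 and 42.9 FPKM in TLR4-WT LPS. In TLR4-K730R they were at 28.1, 35.3 and 18.8 FPKM without and 42.1, 45.3 and 39.2 FPKM with LPS, and in TLR4-K810R at 15.5, 14.0 and 23.1 FPKM without and 45.5, 43.4 and 39.9 FPKM with LPS. The LPS libraries of the genotypes overlapped. The log2 difference was 0.80 in TLR4-WT (adjusted p = 0.00642), 0.65 in TLR4-K730R (adjusted p = 0.021, not called) and 1.27 in TLR4-K810R (adjusted p = 0.000189). The TLR4-WT call was lost without mock replicate 2 or 3 or LPS replicate 2 or 3 (adjusted p = 0.0357, 0.0136, 0.0309 and 0.0224), and in TLR4-K730R the rise was called without mock replicate 2 (adjusted p = 0.00638) and after median-of-ratios scaling (adjusted p = 0.000687). Over all alternatives the adjusted p ran from 0.000373 to 0.0357 in TLR4-WT and from 0.000361 to 0.122 in TLR4-K730R.

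Rel (chr11:23736847-23770970, minus strand) encodes c-Rel, a subunit best known from lymphocytes. It was at 4.87, 4.15 and 5.22 FPKM in TLR4-WT mock and 5.74, 5.76 and 6.99 FPKM in TLR4-WT LPS libraries. TLR4-K730R had 7.23, 8.80 and 4.35 FPKM without and 7.43, 5.69 and 5.72 FPKM with LPS. TLR4-K810R had 3.57, 1.77 and 3.64 FPKM without and 4.24, 5.79 and 5.82 FPKM with LPS. The LPS libraries were above the mock libraries in TLR4-WT and TLR4-K810R and overlapped with them in TLR4-K730R. The log2 differences of 0.32 (adjusted p = 0.263), −0.06 (adjusted p = 0.838) and 0.68 (adjusted p = 0.0242) did not pass the threshold, and that of TLR4-K810R was called after median-of-ratios scaling (adjusted p = 0.004) and quantile normalization (adjusted p = 0.00158), with a range of 0.00158 to 0.256 over all alternatives. Over the same alternatives the difference ran from 0.24 to 1.27 in TLR4-WT (lowest adjusted p = 0.0336 in limma, not called) and from −0.31 to 0.35 in TLR4-K730R.

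**Figure D2:**
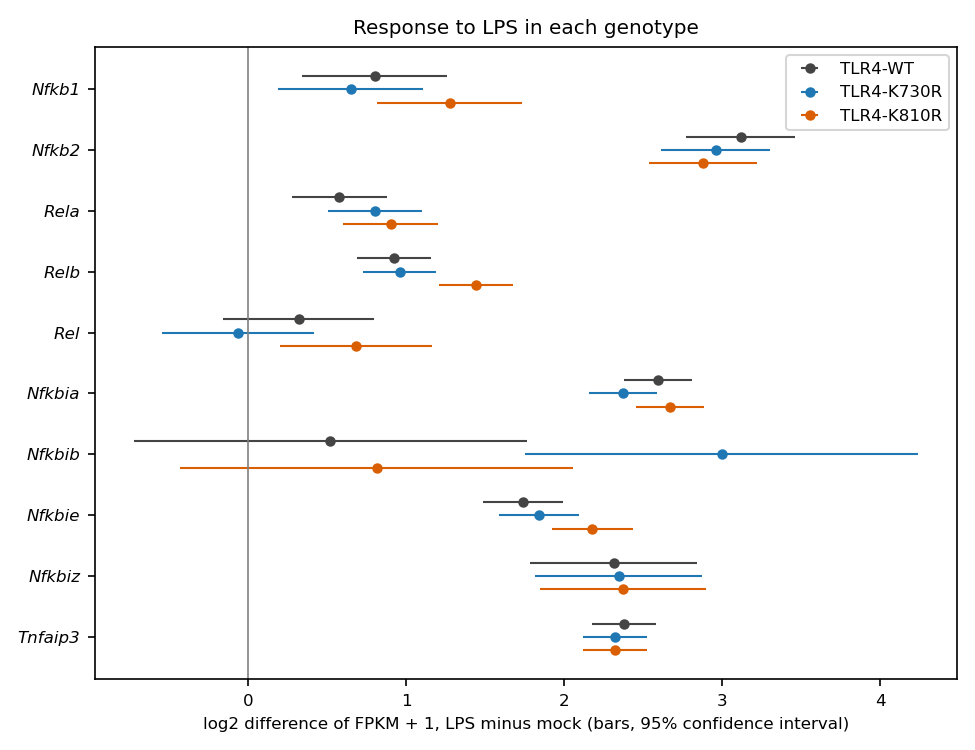
Difference between LPS and mock libraries of each gene in the 3 genotypes, on the log2(FPKM + 1) scale. Points are limma estimates from 3 libraries against 3 and bars their 95% confidence intervals. Nfkb2, Nfkbia, Nfkbiz, Nfkbie and Tnfaip3 lie between 1.74 and 3.12 in all genotypes, and the interval of Rel includes 0 in TLR4-WT and TLR4-K730R.

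The order of the transcript levels changed with LPS. In TLR4-WT mock libraries, mean levels ran from Nfkbia at 58.9 FPKM through Rela at 33.6, Tnfaip3 at 27.2, Nfkb1 at 22.7, Relb at 21, Nfkb2 at 17.1, Nfkbie at 11.4, Nfkbib at 9.76 and Rel at 4.74 to Nfkbiz at 3.54 FPKM. In this order Nfkb1 overlapped with Relb and Relb with Nfkb2, and each neighbour from Nfkbie down to Nfkbiz overlapped with the next. With LPS, Nfkbia stayed first at 361 FPKM, and Nfkb2 at 157 FPKM moved to the second place, overlapping with Tnfaip3 at 146 FPKM. Rela followed at 50.4 FPKM, then Nfkbie, Relb and Nfkb1, which overlapped at 40.4, 40.4 and 40.3 FPKM, then Nfkbiz at 22.1 FPKM overlapping with Nfkbib, and Rel was lowest at 6.16 FPKM. Nfkbia, Nfkb2 and Tnfaip3 were also the first 3 with LPS in TLR4-K730R and TLR4-K810R. Nfkb2 and Tnfaip3 did not overlap in TLR4-K730R LPS libraries and overlapped in those of TLR4-K810R.

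Whether either lysine of TLR4 affects these genes was addressed by comparing each mutant with TLR4-WT within a treatment. None of the 9 tested members was called in any of these 4 comparisons or in the 2 differences of LPS response, in limma at an adjusted p below 0.01. All genes were called rarely too: 0.268% for TLR4-K730R and 1.58% for TLR4-K810R without LPS, 0% and 0.134% with LPS, and 0.0412% and 0.124% for the differences of response. At an unadjusted p below 0.05, the count without LPS was 2 of 9 for TLR4-K730R (beside 7.7% of all genes) and 3 of 9 for TLR4-K810R (beside 14.1%), and with LPS it was 2 of 9 (beside 7.69%) and 1 of 9 (beside 21.8%). For the differences of response it was 1 of 9 each, beside 7.02% and 13.2% of all genes. All 4 comparisons of levels share the TLR4-WT libraries of their treatment.

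Tnfaip3 in TLR4-K810R came nearest to the threshold. With LPS its mean was 111 ± 12.5 FPKM, compared with 146 ± 3.93 FPKM for TLR4-WT (n = 3 each, SD), a log2 difference of −0.39 (95% confidence interval −0.60 to −0.19, adjusted p = 0.0437), lower in 3 of 3 libraries. Without LPS it was 21.4 ± 2.01 against 27.2 ± 0.868 FPKM, a difference of −0.34 (−0.54 to −0.13, adjusted p = 0.0689), again lower in 3 of 3 libraries. The rise with LPS differed between TLR4-K810R and TLR4-WT by −0.06 (−0.34 to 0.23, adjusted p = 0.892), and by −1.70 from first exons alone (adjusted p = 0.613). At an adjusted p below 0.05 the LPS difference would be the only member called, among 2.19% of all genes. Over the alternatives the difference with LPS ran from −2.93, from first exons alone, to −0.33, with an adjusted p of 0.0148 to 0.196, and that without LPS from −1.23, again from first exons alone, to −0.28.

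In TLR4-K810R without LPS, 7 of the 9 members were below TLR4-WT, with a median difference of −0.21 beside 0.07 for all genes, and 9 of 9 were below after median-of-ratios scaling but again 7 of 9 after quantile normalization. With Nfkbib taken from its last exon the median was −0.32. By that exon Nfkbib itself differed by −1.10 (−2.14 to −0.05, adjusted p = 0.316 in limma). Its LPS response by that exon exceeded that of TLR4-WT by 1.19 (−0.29 to 2.66, adjusted p = 0.491). The libraries of Relb, Rel and Tnfaip3 lay wholly below those of TLR4-WT, as did those of Nfkbie, which is not among the 9, beside 6.64% of all genes. Relb differed by −0.32 (−0.55 to −0.09, adjusted p = 0.154), Nfkbie by −0.36 (−0.61 to −0.11, adjusted p = 0.144) and Rel by −0.56 (−1.04 to −0.08, adjusted p = 0.254), a difference that turned to 0.39 from last exons alone (adjusted p = 0.774). With LPS, 5 of 9 members were above and 4 below TLR4-WT, beside a median of 0.11 for all genes. After median-of-ratios scaling, 2 were above and 7 below, whereas quantile normalization left 5 above and 4 below. The libraries of Relb lay above and those of Tnfaip3 below TLR4-WT, beside 17.4% and 7.89% of all genes. The LPS response of TLR4-K810R exceeded that of TLR4-WT by 0.52 for Relb (0.19 to 0.85, adjusted p = 0.157) and by 0.44 for Nfkbie (0.08 to 0.80, adjusted p = 0.282). None of these passed the threshold.

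In TLR4-K730R, 7 of 9 members were above TLR4-WT without LPS and 9 of 9 with LPS, with median differences of 0.24 and 0.20 beside 0.03 and −0.04 for all genes, and these counts were the same after median-of-ratios scaling and quantile normalization. The libraries lay wholly above TLR4-WT for 4 members without LPS (Nfkb2, Relb, Nfkbia and Tnfaip3, the last with the opposite direction from first exons alone), beside 8.91% of all genes. With LPS they did so for 5 (Rela, Relb, Nfkbia, Nfkbib and Tnfaip3), beside 3.32%. Nfkbia without LPS was the most distinct, at 80.0 ± 4.68 against 58.9 ± 5.33 FPKM (SD, n = 3 each), a log2 difference of 0.44 (0.22 to 0.65, adjusted p = 0.0755). With LPS, Nfkbia differed by 0.21 (−0.00086 to 0.43, adjusted p = 0.649), Relb by 0.29 (0.05 to 0.52, adjusted p = 0.606) and Nfkb2 by 0.17 (−0.17 to 0.52, adjusted p = 0.832). Nfkbib differed by 2.01 (0.76 to 3.25, adjusted p = 0.541) with its partly listed first exon and by 0.26 (−0.79 to 1.30) by its last exon, by which the libraries overlapped.

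The intervals of the response differences are given for the 6 members called in each genotype, by the larger sum of exons. The difference of LPS response for Nfkbia was −0.22 in TLR4-K730R (−0.53 to 0.08) and 0.08 in TLR4-K810R (−0.23 to 0.38). For Nfkb2 it was −0.16 (−0.64 to 0.33) and −0.24 (−0.73 to 0.25), and for Nfkbiz 0.03 (−0.72 to 0.78) and 0.06 (−0.69 to 0.81). For Rela it was 0.23 (−0.20 to 0.65) and 0.32 (−0.10 to 0.75). For Tnfaip3 it was −0.05 in TLR4-K730R (−0.34 to 0.23) beside the −0.06 given above for TLR4-K810R, but 1.89 and −1.70 from first exons alone (adjusted p = 0.836 and 0.613). For Relb it was 0.04 in TLR4-K730R (−0.29 to 0.37), and the interval of 0.19 to 0.85 in TLR4-K810R was the only one of these 12 that left out 0, without passing the threshold after adjustment. Equal responses were not shown: these intervals reach 0.85 on the log2 scale, and the first-exon values of Tnfaip3 lie beyond that.

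**Figure D3:**
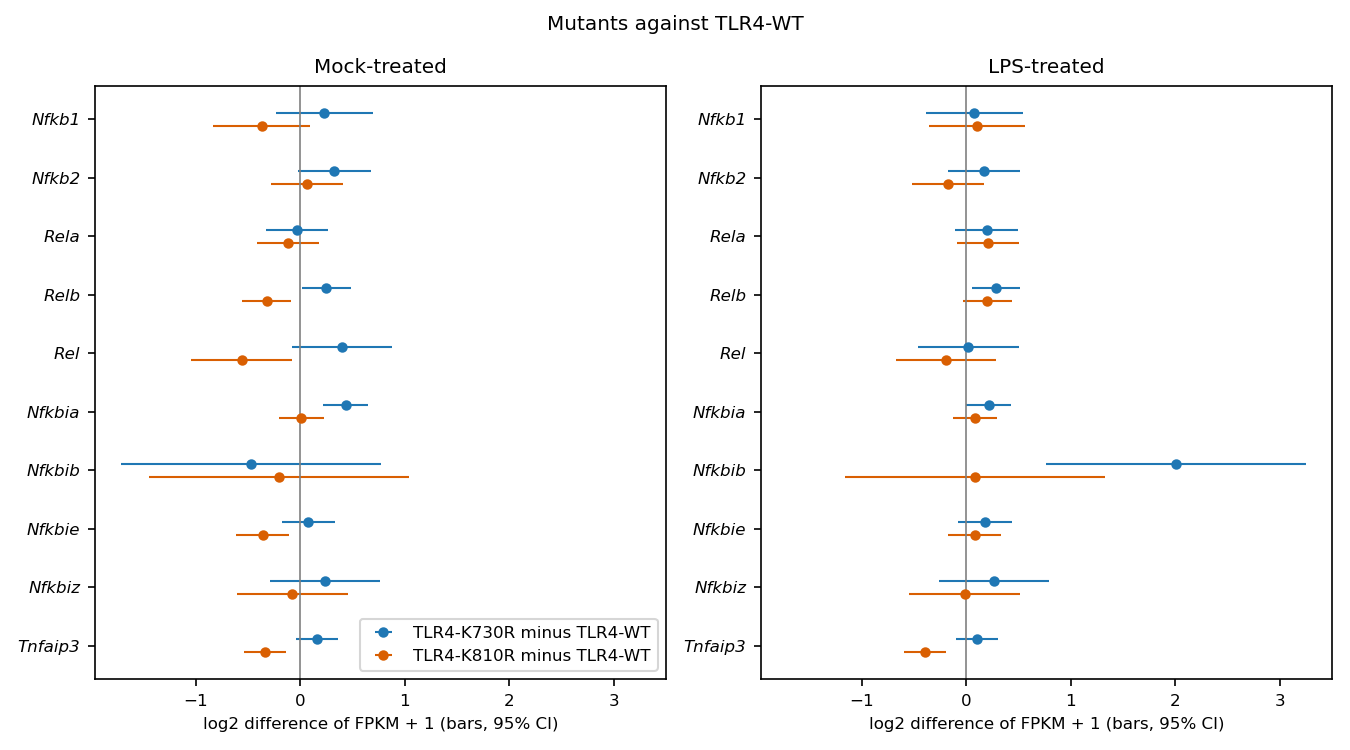
Difference of each mutant from TLR4-WT for each gene, in mock-treated (left) and LPS-treated (right) macrophages, on the log2(FPKM + 1) scale. Points are limma estimates from 3 libraries against 3 and bars their 95% confidence intervals. None passed the adjusted threshold of 0.01. In TLR4-K810R, Tnfaip3 lies at −0.34 and −0.39, and the intervals of Nfkbib are the widest.

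Markers of other cell types were listed at levels that differed between the groups compared. The summed FPKM of 5 neutrophil markers lay between 22.9 and 46.7 in mock libraries and between 172 and 245 in LPS libraries, and 6 macrophage markers summed to 11633 to 14785 FPKM without and 7289 to 10057 FPKM with LPS. The macrophage sum was mostly Lyz2, at 5944 to 13291 FPKM over all libraries, while the next highest marker, Cd68, reached at most 771 FPKM. A list of 6 mesothelium and fibroblast markers summed to 26.1 to 41.7 FPKM in TLR4-WT mock libraries, 50.5 to 58.3 in TLR4-K730R and 99.5 to 227 in TLR4-K810R. With LPS it summed to 38.7 to 122, 43.0 to 43.2 and 91.4 to 108 FPKM. The 6 intestinal epithelium markers summed to 2.44 to 3.04 FPKM in TLR4-WT mock libraries, 48.8 to 75.3 in TLR4-K730R and 62.6 to 131 in TLR4-K810R, and with LPS to 1.43 to 15.5, 50.003 to 58.7 and 3.78 to 24.9 FPKM. The 4 lung epithelium markers stayed at or below 3.94 FPKM, except for up to 34.2 FPKM in TLR4-K810R LPS libraries. T cell markers (5 listed) summed to at most 0.958 FPKM, dendritic cell markers (2 of 4 listed) to at most 1.63 FPKM, B cell markers (4 of 5 listed) to at most 3.66 FPKM and mast cell markers (5 listed) to at most 5.25 FPKM. The part of these cells in the differences of the NF-κB genes was not tested.

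Nfkbiz is known to have alternative starts, and its first exons were listed separately. The upstream first exon (chr16:55838461-55838899) lies at the annotated start of the gene, and the downstream first exon (chr16:55821768-55822138) lies within it. With LPS in TLR4-WT, the upstream exon was at 3.64, 3.97 and 5.99 FPKM and the downstream exon at 17.3, 10.9 and 24.6 FPKM, so that the downstream exon led in 3 of 3 libraries. In TLR4-K810R LPS libraries the upstream exon was at 13.5, 11.6 and 10.3 FPKM and the downstream exon at 6.65, 6.83 and 3.77 FPKM. The upstream exon made up 17.4%, 26.6% and 19.5% of the first-exon FPKM in TLR4-WT LPS libraries and 67.0%, 62.9% and 41.3% in those of TLR4-K810R. In TLR4-K730R LPS libraries it made up 19.5%, 76.2% and 27.4%, so that replicate 2 lay apart from the other two libraries of its group. In mock libraries, where the sum was at most 4.67 FPKM, the share ran from 0% to 71.5%. These shares are a description, were not tested, and depend on how the authors' program divided fragments between transcripts. A middle first exon was listed in 3 libraries, at 3.16 FPKM in TLR4-WT mock replicate 3, 3.22 FPKM in TLR4-K730R LPS replicate 2 and 10.9 FPKM in TLR4-K810R LPS replicate 3.

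**Figure D4:**
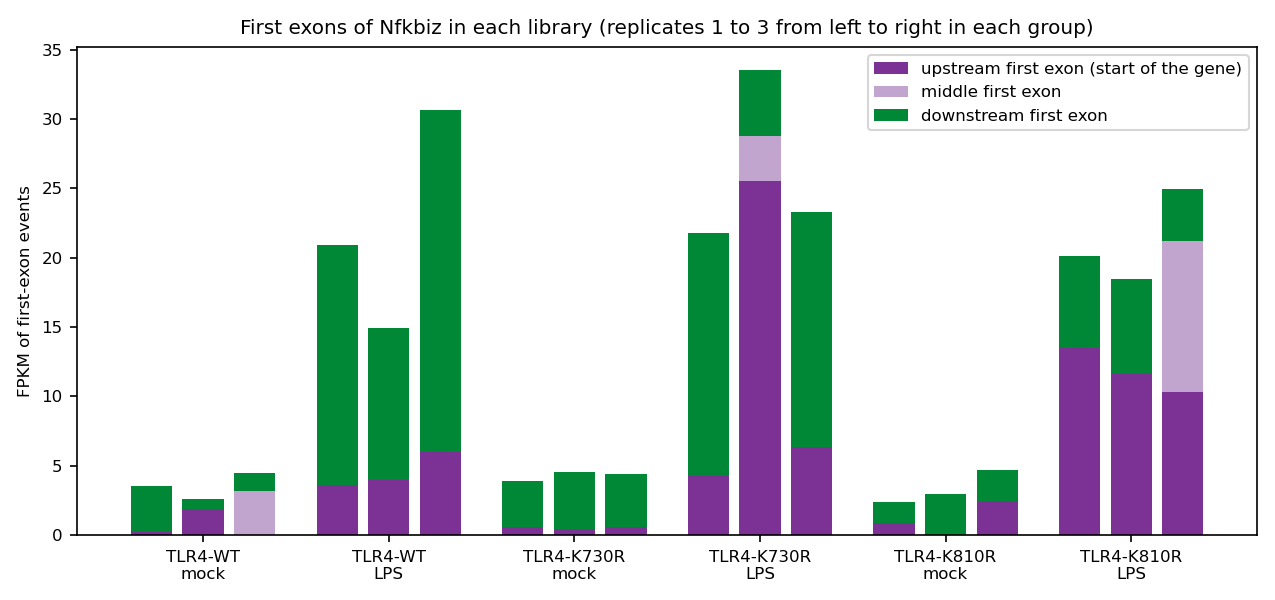
FPKM of the first-exon events of Nfkbiz in every library, stacked by first exon, with 3 bars (replicates) for each group. The summed height rises with LPS in all genotypes, to between 14.9 and 33.5 FPKM. The upstream exon takes up 17.4% to 26.6% of the bar in TLR4-WT LPS and 41.3% to 67.0% in TLR4-K810R LPS libraries.

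The first-exon FPKM of the other members came mostly from 1 first exon each, although the level used here was that of the last exons in some libraries of Nfkb1, Relb and Tnfaip3 and in 15 of the 18 of Nfkbib. Nfkb1, Rel, Nfkbia and Nfkbie had a single first-exon event, as did Nfkbib, where it was listed in 3 libraries. The leading first exon made up at least 96.1% of the first-exon FPKM of Nfkb2, 92.5% of that of Relb and 88.1% of that of Tnfaip3 in every library. For Rela the leading first exon had a median share of 99.0% and a lowest share of 31.1%.

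The wider pathway was read from a list of 40 genes that act with the members, among them IκB-like proteins, the IκB kinases and the kinases above them, ubiquitin ligases and negative regulators. Of these, 38 were tested, and Map3k14 and Rnf31 had no row under their numbers. With LPS, 13 were called higher and 5 lower in TLR4-WT. The counts were 10 and 4 for TLR4-K730R, and 12 and 5 for TLR4-K810R, beside 10.4%, 9.32% and 9.08% of all genes called higher and 23.9%, 26.5% and 19.7% called lower. The median difference over the 38 was 0.18, 0.09 and 0.17, against −0.28, −0.36 and −0.26 over all genes. The falls depended on the scaling of the libraries: after median-of-ratios scaling, 18, 15 and 13 of the 38 were called higher and 1, 2 and 1 lower. None of the 38 was called in any comparison of a mutant with TLR4-WT or of the responses, in limma at an adjusted p below 0.01.

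The negative regulators held the largest rises of this list. Tnip1, which encodes a partner of A20, went from 31.4 ± 2.98 to 192 ± 25.5 FPKM in TLR4-WT, from 28.8 ± 5.33 to 207 ± 11.3 FPKM in TLR4-K730R and from 29.5 ± 9.87 to 190 ± 9.84 FPKM in TLR4-K810R (n = 3 each, SD). Zc3h12a, which encodes an RNase that degrades inflammatory transcripts, went from 10.03 to 49.8 FPKM, from 10.2 to 63.6 FPKM and from 9.14 to 46.8 FPKM in the same order. Of the 13 negative regulators tested, 5 were called higher and 2 lower in TLR4-WT, with 4 and 1 for TLR4-K730R, and 5 and 2 for TLR4-K810R, beside 10.4%, 9.32% and 9.08% of all genes called higher and 23.9%, 26.5% and 19.7% called lower. Otulin, which encodes a deubiquitinase for linear chains, fell in each genotype, by 0.80, 1.08 and 0.44 on the log2 scale. Otud7b, which encodes another deubiquitinase, fell by 1.04 in TLR4-WT, and Itch, which encodes a ubiquitin ligase that works with A20, fell by 1.18 in TLR4-K810R. Otud7b differed by −0.06 in TLR4-K730R and −0.05 in TLR4-K810R, and Itch by −0.18 in TLR4-WT and −0.67 in TLR4-K730R, none called. For neither gene was a difference of LPS response called. After median-of-ratios scaling, the falls of Otulin in TLR4-WT and TLR4-K730R (0.49 and 0.70) and of Itch in TLR4-K810R (0.94) were still called, while those of Otulin in TLR4-K810R (adjusted p = 0.267) and of Otud7b (adjusted p = 0.0336) were not.

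Among the 10 tested genes of the IκB kinases and the kinases above them, 3 were called higher and 2 lower in TLR4-WT, with 1 and 2 for TLR4-K730R, and 2 and 2 for TLR4-K810R. Of all genes, 10.4%, 9.32% and 9.08% were called higher and 23.9%, 26.5% and 19.7% lower in the same order. Beside these shares, the counts of 10 genes are given as a description. Ikbke, which encodes an inducible IκB kinase-like enzyme, rose by 1.52, 1.16 and 1.31 on the log2 scale in TLR4-WT, TLR4-K730R and TLR4-K810R. Map3k7, which encodes the kinase TAK1, fell by 0.49, 0.77 and 0.51 in the same order, and Tab1, which encodes its binding partner, by 0.69, 0.74 and 0.70. Of these falls, that of Map3k7 in TLR4-K730R (0.43) was still called after median-of-ratios scaling, and the other five were not (adjusted p = 0.0112 to 0.0863). Of the 10 ubiquitin ligase genes tested, 3 were called higher in each genotype (Traf2, Birc3 and Peli1), with rises between 1.13 and 1.60, and 1, 1 and 0 were called lower, beside the same shares of all genes. Of 5 IκB-like genes, Bcl3, which encodes a nuclear partner of p50 and p52, rose from 10.4 ± 1.39 to 35.4 ± 0.0232 FPKM in TLR4-WT, from 13.1 to 36.6 FPKM in TLR4-K730R and from 11.6 to 35.5 FPKM in TLR4-K810R. Nfkbil1 also rose in each genotype, by 0.84, 1.31 and 1.10 on the log2 scale, and Nkiras2, which encodes a protein that binds IκB, fell by 0.65 in TLR4-K810R, a call that median-of-ratios scaling removed (adjusted p = 0.136) and quantile normalization kept (a fall of 0.76, adjusted p = 0.00102). Nkiras2 differed by −0.30 in TLR4-WT and −0.41 in TLR4-K730R, neither called.

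**Figure D5:**
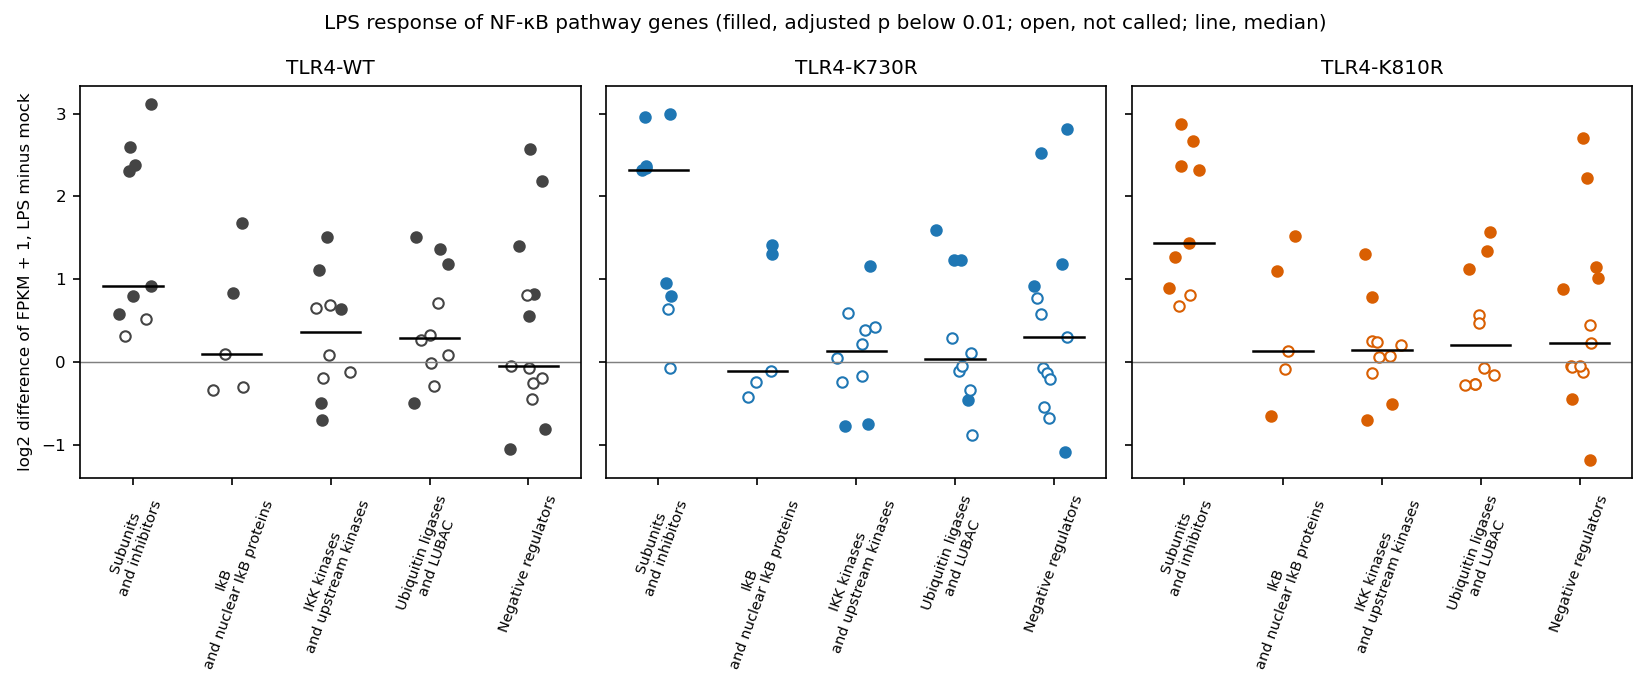
Difference between LPS and mock libraries on the log2(FPKM + 1) scale for the 9 tested subunits and inhibitors and for the 38 tested pathway genes, by role, in each genotype. Points are genes, filled where called at an adjusted p below 0.01, and lines are medians. The median of the 9 members lies at 0.92, 2.32 and 1.44, and at 0.92, 1.25 and 1.71 with Nfkbib taken from its last exon.

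The genes whose pattern was most like each member were found by the root mean square difference, on the log2 scale, over the 5 differences of the group means from TLR4-WT mock. They were Ccrl2 (0.09) for Nfkbia, Nod2 (0.09) for Nfkbiz, Il17ra (0.12) for Tnfaip3, Adora2b (0.15) for Nfkb2 and Abtb2 (0.11) for Nfkbie. For Rela, Relb and Nfkb1 they were Pdlim2 (0.04), Mirt2 (0.10) and Agtrap (0.07), and for Rel it was H2-Ab1 (0.12). The nearest gene to Nfkbib, Mcoln2, lay farther off at 0.49.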

How the data were processed

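Peritoneal macrophages of 3 genotypes, mock-treated or treated with LPS (100 ng/ml, 6 h), were profiled with 3 libraries in each of 6 groups, and groups follow the sample labels. The authors deposited FPKM values, 1 row per transcript event of 20 kinds (80071 to 90401 rows per library), from Illumina sequencing that a company carried out. The aligner, the event program and the strandedness are not given in the sources used here. The submitters' processing notes name the human build hg18, but the mouse coordinates matched GRCm38: of 14138 Ensembl numbers in the files, 14126 were in GENCODE M21.

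First-exon and last-exon events on the strand of the named gene and overlapping its span were kept, which left out 6.24% of their FPKM. A gene's value is the larger of both sums. limma 3.58.1 (R 4.3.3) was fitted to log2(FPKM + 1) over all 18 libraries with 6 group means and an intensity trend, for the 9707 genes that reached 1 FPKM in 3 or more libraries, two-sided. It was tested on simulated data. A call needs an adjusted p below 0.01, as in the study's methods. The files hold no counts, so depth is unknown. Alternatives were the pseudocount, filter, scaling, library weights, a replicate block, the groups fitted, the events summed and leaving out each library.

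The genes named were the 10 members, of the pathway list the 3 called genes with the largest rise and the 3 with the largest fall in each genotype, and the genes most like each member. Others of the list (Ikbke, Traf2, Peli1 and Nfkbil1) were named after their values were seen. The members and lists were chosen with earlier results of these data known. Replicate numbers were not used to pair libraries. Deviations of same-numbered libraries from their group means correlated at −0.32 to 0.0993, and of others at −0.12 to 0.269. For same-numbered mock and LPS libraries of the same genotype they correlated at −0.0522 to 0.0924. Whether libraries were paired is not decided by these ranges: the first holds pairs of different genotypes, and each group mean rests on 3 libraries. Promoters are from RefSeq (GRCm38.p6).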

Additional observations from a re-analysis of the deposited data

Results flagged for a closer look

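Events on the strand opposite to a member were not used for its value. At Nfkbia, such first-exon events (chr12:55490479-55490624, plus strand) were listed only with LPS, at 0.850 FPKM in TLR4-WT replicate 1, 0.529 FPKM in TLR4-K730R replicate 2 and 2.946 FPKM in TLR4-K810R replicate 3, and in 0 of 9 mock libraries. At Tnfaip3 (chr10:19002358-19002506, plus strand) 1 library was listed, TLR4-K730R LPS replicate 3 at 2.82 FPKM, and 0 mock libraries. Both signals are flagged because they exceed the mock libraries in data that no comparison uses. The genes themselves stood at 392 and 156 FPKM in the highest of these libraries. No test was made, and without known strandedness reads of the gene and of its other strand cannot be told apart.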

How the results depend on the processing

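Differences of single members between groups, 1893 values over all alternatives, kept their direction wherever a call was made: 1821 stayed on their side of the threshold (uncalled ones within 1 standard error), 49 uncalled values moved by more than 1 standard error, 17 calls were lost, 6 were gained and 0 reversed. With LPS, the number of members called between TLR4-K810R and TLR4-WT was 1 in place of 0 at an adjusted p below 0.05. Leaving out 1 library, the count called with LPS ran from 5 to 7 in TLR4-WT, 7 to 8 in TLR4-K730R and 7 to 7 in TLR4-K810R, and was 0 to 0 in every mutant comparison and response difference. Over all alternatives the count called with LPS ran from 5 to 7 in TLR4-WT, 5 to 8 in TLR4-K730R and 6 to 8 in TLR4-K810R. A fit with a replicate block called 6, 7 and 7 members with LPS, where Nfkb1 in TLR4-WT was lost (adjusted p = 0.0121), and changed no other call. Whether the replicate numbers mark pairs is not known. The lost calls were those of Nfkb1 in TLR4-WT (also with no filter, 0.0107, library weights, 0.0195, and only the groups compared, 0.012), Rela in TLR4-WT (only the groups compared, 0.0139), Nfkbib in TLR4-K730R (first exons only, 0.0188, and last exons only, 0.048) and Tnfaip3 in TLR4-WT and TLR4-K810R (first exons only, 0.0412 and 0.588), all as adjusted p in limma, besides the left-out libraries named in the text. Nfkb1 in TLR4-K730R was gained with quantile normalization (0.00842) and first exons only (0.000361). Apart from the ends listed in part, the cause was not tested. With 3 libraries a group and no counts, differences between genotypes below about the widths of the intervals given cannot be shown.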
